A study of Mus musculus with 6 samples.

Results

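The 5' fragments of tRNA-Ala and tRNA-Pro were described in mouse sperm. They were the rows of the deposited table of tRNA-derived small RNAs (tsRNAs) whose name gives the isotype Ala or Pro and the 5' end. Of 124 rows, 8 met this rule, 4 of tRNA-Ala and 4 of tRNA-Pro, each named by its anticodon. Mature sperm came from the cauda epididymis, the part of the duct in which sperm are stored, of males aged 8 weeks, given as C57BL/6 in the strain label and C57BL/6J in the protocol. There were 3 samples from normal mice and 3 from mice with a depressed state induced by stress, called normal and stress samples here. How the stress was applied, and whether a sample came from 1 animal or from a pool, is not given in the sources used here, so every p-value below is set against sample-to-sample spread that could be technical rather than between animals.

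Transfer RNAs carry amino acids to the ribosome and read the codon with their anticodon. Cleavage in or near the anticodon loop releases a 5' and a 3' part, and the 5' parts are among the most abundant small RNAs of mature mouse sperm, much of them gained in the epididymis. tRNA-Ala carries alanine and tRNA-Pro carries proline, and each isotype exists as several isoacceptors that differ in the anticodon. The CCA in some row names is the tail that mature tRNAs carry at the 3' end. RefSeq (GRCm38.p6) lists 33 nuclear tRNA-Ala genes, of which 13 have the anticodon AGC, 9 have CGC and 11 have TGC. Its 16 nuclear tRNA-Pro genes are 6 with AGG, 3 with CGG and 7 with TGG. It lists 0 genes with the anticodons of the remaining rows, Ala-GGC and Pro-GGG.

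The deposited values are in RPM, reads scaled so that each sample's tsRNA table sums to 1000000. Between 97 and 117 of the 124 rows were above 0 in a sample. If the commonest value at or below 1 RPM was worth 1 read, that read was 0.855 to 0.988 RPM in normal and 0.418 to 0.726 RPM in stress samples. By this estimate every stress sample had more reads in the tsRNA table than every normal sample. Only 14 to 23 of the 52 to 67 values up to 20 RPM per sample were whole multiples of that read value (within 0.001). The tsRNA depth, and with it this order of the samples, is thus known only roughly. tRNA-Glu rows took 61.6% to 67.5% and tRNA-Gly rows 29.7% to 33.9% of the signal, which left 2.78% to 5.45% for all other isotypes. A small shift in tRNA-Glu or tRNA-Gly can thus move every other RPM value. Normal replicate 3 had the largest remainder (5.45%) and normal replicate 2 the smallest (2.78%). In the miRNA table, normal replicate 3 had 3067208 reads against 1010203 to 1522849 in the other 5 samples. Its tsRNA depth by the rough estimate lay within the range of the others. Values are therefore given on the RPM scale and again as shares of the rows left without the 16 rows of tRNA-Glu and tRNA-Gly.

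Of the tRNA-Ala fragments, Ala-CGC was the most abundant on average and the steadiest. It stood at 3824, 2982 and 4668 RPM in normal replicates 1 to 3 and at 3354, 2802 and 3340 RPM in stress replicates 1 to 3. The groups overlapped, and the highest sample was 1.67 times the lowest. On log2(RPM + 1), the difference of stress minus normal was −0.25 ± 0.33 (SE, n = 3 per group), and limma over the whole table gave an adjusted p of 0.81. With 1 sample left out it ranged from −0.42 (without normal replicate 2) to −0.10 (without normal replicate 3).

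Ala-TGC varied far more. It was at 1450, 1409 and 4471 RPM in the normal and at 934.6, 1576 and 758.03 RPM in the stress replicates. Stress replicate 2 lay above normal replicates 1 and 2, and normal replicate 3 lay above all other samples, so that the highest sample was 5.90 times the lowest. The log2 difference of Ala-TGC was −1.01 ± 0.42 (SE, n = 3 per group), lower in stress, with an unadjusted p of 0.017 and an adjusted p of 0.33 in limma, so it did not pass. With 1 sample left out, it ranged from −1.31 without stress replicate 2 (adjusted p = 0.30 in limma) to −0.46 without normal replicate 3 (unadjusted p = 0.29, adjusted p = 0.57).

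Ala-AGC showed the same order of samples as Ala-TGC in the stress group and the same high value in normal replicate 3. It was at 941.2, 696.2 and 2102 RPM in the normal and at 625.04, 872.1 and 531.4 RPM in the stress replicates. Its log2 difference was −0.75 ± 0.48 (limma adjusted p = 0.54). It was −1.09 without normal replicate 2 and −0.29 without normal replicate 3. The groups overlapped here as well, since stress replicate 2 exceeded normal replicate 2.

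Ala-GGC was a trace feature. It was at 0.988, 0.893 and 21.1 RPM in the normal and at 1.83, 5.11 and 1.81 RPM in the stress replicates. The value of 21.1 RPM is that of normal replicate 3, and without that sample every stress sample was above every normal sample. By the rough depth estimate, 1 read was worth 0.988 RPM in normal replicate 1 and 0.855 RPM in normal replicate 2. The values of those samples thus rest on about 1 read each. The log2 difference was −0.26 ± 0.66 with all samples and 0.91 without normal replicate 3, and neither passed in limma (adjusted p = 0.84 and 0.43).

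**Figure D1:**
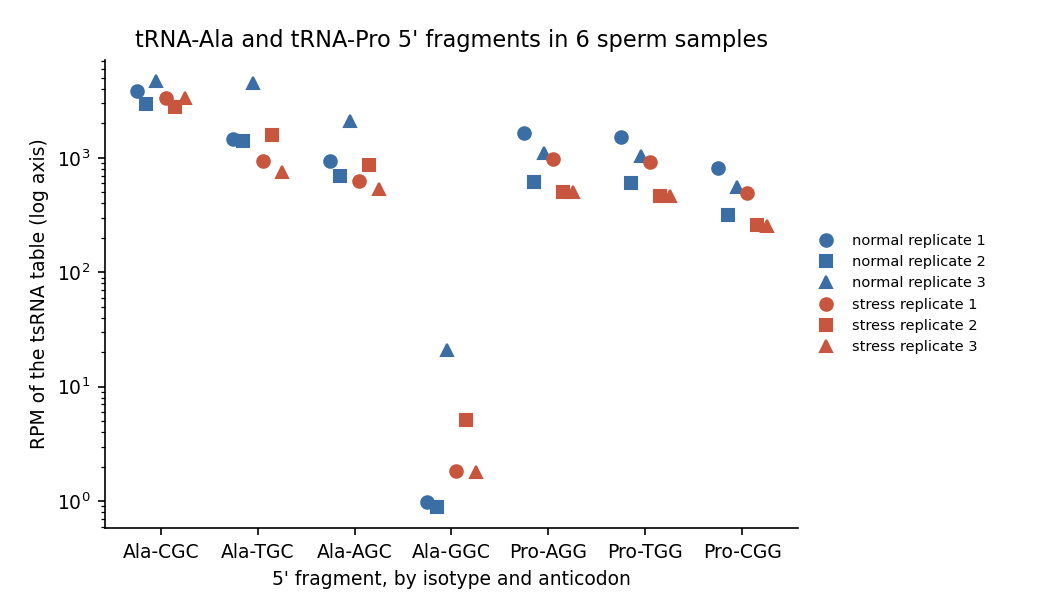
RPM (log axis) of the 7 fragments above 0 in every sample, by anticodon, with a point for each of the 6 samples (blue normal, red stress, shape by replicate number). Normal replicate 3 is the highest sample for all 4 tRNA-Ala fragments, while normal replicate 1 is the highest for the 3 tRNA-Pro fragments; Pro-GGG, listed at 0 in 5 samples, is not drawn.

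The balance of anticodons within tRNA-Ala depends on no other isotype and on no scaling. Ala-CGC held 61.5%, 58.6% and 41.4% of the tRNA-Ala 5' signal in the normal and 68.2%, 53.3% and 72.1% in the stress replicates. Ala-TGC held 23.3%, 27.7% and 39.7% in the normal and 19.01%, 29.99% and 16.4% in the stress replicates. Ala-AGC took between 11.5% and 18.7%, and Ala-GGC at most 0.187%. The sample with the least Ala-CGC was normal replicate 3 and the next was stress replicate 2, so the pattern did not follow the groups. The CGC share was 53.9% ± 10.8 (SD, n = 3) in normal and 64.6% ± 9.93 in stress samples (two-sided exact permutation p = 0.3). Without stress replicate 2 the stress mean was 70.2% and the groups did not overlap, and without normal replicate 3 the normal mean was 60.1%. The TGC share was 30.2% ± 8.48 and 21.8% ± 7.22 (exact permutation p = 0.3, n = 3 per group). With 3 samples against 3 this test cannot give a p below 0.1. Over the 6 anticodon shares tested in both isotypes, the smallest Benjamini-Hochberg value was 0.48.

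**Figure D2:**
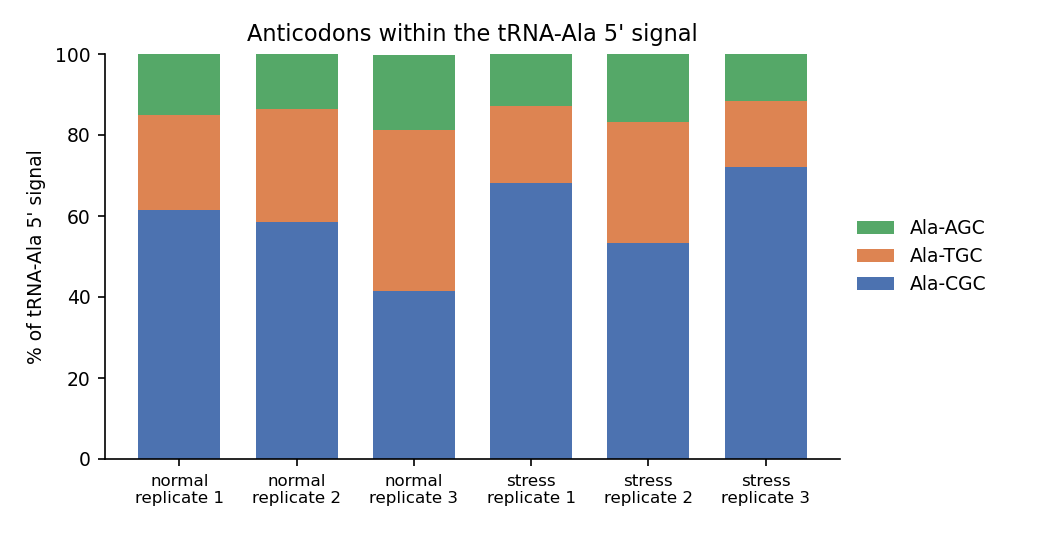
Stacked bars of each anticodon's percent of the tRNA-Ala 5' signal, 1 bar per sample (Ala-GGC, at most 0.187%, is not drawn). The Ala-CGC part is smallest in normal replicate 3 (41.4%) and stress replicate 2 (53.3%), 1 sample of each group.

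The shares of the tRNA-Ala isoacceptors differed from their shares of the genes in RefSeq. How reads shared between anticodons or gene copies were counted is unknown, which bears on each such share. Anticodon CGC has 27.3% of the genes and held 59.2% of the 5' signal on average over the 6 samples. Anticodon AGC has 39.4% of the genes and held 14.7% of the signal, and TGC has 33.3% of the genes and held 26.0%. The ratio of Ala-TGC to Ala-CGC ranged from 0.227 in stress replicate 3 to 0.958 in normal replicate 3. Its log2 difference between the groups was −0.76 (exact permutation p = 0.3, n = 3 per group) with all samples. It was −0.36 without normal replicate 3 and −1.14 without stress replicate 2, where the groups no longer overlapped. With all 6 samples, Ala-TGC and Ala-CGC are not shown to differ in their response. For Ala-AGC to Ala-CGC the log2 difference was −0.50 (exact permutation p = 0.4, n = 3 per group), from −0.78 without stress replicate 2 (no overlap) to −0.19 without normal replicate 3. Ala-TGC to Ala-AGC was steadier, at ratios of 1.43 to 2.13. Its log2 difference was −0.26 (exact permutation p = 0.2, n = 3 per group), and the groups overlapped. It was −0.40 without normal replicate 1 and −0.36 without stress replicate 2, both without overlap, and −0.17 without normal replicate 3.

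The deposited values of Pro-AGG, Pro-TGG and Pro-CGG moved together over the samples. Pro-AGG was at 1634, 620.9 and 1110 RPM in the normal and at 976.1, 505.5 and 498.6 RPM in the stress replicates. Pro-TGG followed at 1516, 599.7 and 1034 RPM in the normal and at 921.9, 465.6 and 465.4 RPM in the stress replicates. Both were highest in normal replicate 1, and for both stress replicate 1 lay above normal replicate 2, so the groups overlapped. Pro-CGG was at 819.8, 314.7 and 556.7 RPM in the normal and at 495.3, 259.3 and 255.07 RPM in the stress replicates, with the same order. Pro-GGG was listed at 0 in 5 samples and at 0.022 RPM in stress replicate 3, and did not enter the test.

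In limma, the log2 differences of stress minus normal were −0.73 ± 0.49 (SE, n = 3 per group) for Pro-AGG, −0.74 ± 0.50 for Pro-TGG and −0.71 ± 0.56 for Pro-CGG. None passed (adjusted p = 0.54, 0.54 and 0.63). Their size depended on single samples in both directions. Without normal replicate 1 they were −0.41, −0.43 and −0.39 for Pro-AGG, Pro-TGG and Pro-CGG. Without normal replicate 2 they were −1.10, −1.10 and −1.08 (limma unadjusted p = 0.019, 0.021 and 0.044, adjusted p = 0.21, 0.21 and 0.27), and without stress replicate 1 they were −1.05, −1.07 and −1.02.

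The ratio of Pro-AGG to Pro-CGG stayed between 1.95 and 1.99 in all 6 samples, while the level of Pro-AGG ranged over 3.28-fold. RefSeq has 2 Pro-AGG genes for each Pro-CGG gene. The CCA-end rows of the same anticodons gave 1.999 to 2 in every sample. Pro-AGG to Pro-TGG lay between 1.04 and 1.09. Within the tRNA-Pro 5' signal, AGG held 40.9%, CGG 20.7% and TGG 38.3% on average, where RefSeq gives 37.5%, 18.8% and 43.8% of the genes. Among the 13 pairs of anticodons of 1 isotype with at least 100 RPM in every sample, the 3 tRNA-Pro pairs ranked 2, 4 and 5 by coefficient of variation, at 0.955% to 2.01%. The 3 tRNA-Ala pairs ranked 8, 11 and 12, at 16.4% to 47.4%. How reads that match several tRNA genes were counted is not given in the sources used here, so the single tRNA-Pro values are uncertain and are not 3 independent measurements. The CGG part was 20.65%, 20.50% and 20.61% in the normal and 20.70%, 21.08% and 20.92% in the stress replicates, without overlap but by only 0.31 percentage points on average (exact permutation p = 0.1, the least that 3 against 3 can give, and 0.48 after adjustment over 6 shares).

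**Figure D3:**
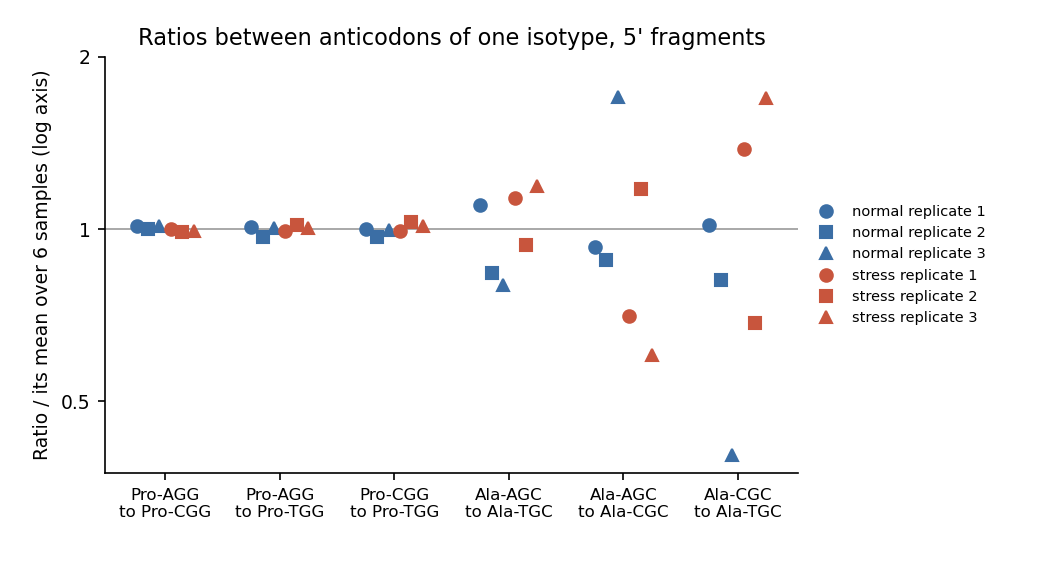
Ratios between anticodons of 1 isotype, each divided by its mean over the 6 samples (log axis), 1 point per sample. The 3 tRNA-Pro ratios stay within a few percent of their mean in all samples, while the tRNA-Ala ratios that involve Ala-CGC range over 2.83-fold and 4.22-fold.

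Summed over anticodons, the tRNA-Ala 5' signal was 0.622%, 0.509% and 1.13% of the table in the normal and 0.492%, 0.525% and 0.463% in the stress replicates. The means were 0.752% ± 0.329 (SD, n = 3) and 0.493% ± 0.0312, and the groups overlapped (two-sided exact permutation p = 0.2). The difference was −0.26 percentage points. With 1 sample left out it ranged from −0.38 (without normal replicate 2) to −0.072 (without normal replicate 3), and the groups did not overlap without normal replicate 2 or without stress replicate 2. For tRNA-Pro the shares were 0.397%, 0.154% and 0.270% in the normal and 0.239%, 0.123% and 0.122% in the stress replicates, again with overlap. The tRNA-Pro means were 0.274% ± 0.122 (SD, n = 3) and 0.161% ± 0.0675 (exact permutation p = 0.2), a difference of −0.11 percentage points. It was −0.050 without normal replicate 1, −0.17 without normal replicate 2 and −0.15 without stress replicate 1, and in the last 2 cases the groups did not overlap.

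Leaving out tRNA-Glu and tRNA-Gly separated the groups for tRNA-Ala. Its 5' fragments took 14.5%, 18.3% and 20.7% of the remaining signal in the normal and 12.5%, 11.6% and 14.03% in the stress replicates. Every stress sample was below every normal sample, with a narrow gap between normal replicate 1 (14.5%) and stress replicate 3 (14.03%). The means were 17.8% ± 3.11 (SD, n = 3) and 12.7% ± 1.22, a 1.40-fold lower share in stress (exact permutation p = 0.1, the smallest 3 against 3 allows; Benjamini-Hochberg value 0.27 over the 4 shares). Without normal replicate 3 the normal mean was 16.4% and the groups still did not overlap. tRNA-Pro took 9.26%, 5.51% and 4.95% in the normal and 6.07%, 2.72% and 3.69% in the stress replicates, so that stress replicate 1 exceeded 2 of the normal samples. The tRNA-Pro means were 6.58% ± 2.34 (SD, n = 3) and 4.16% ± 1.72 (exact permutation p = 0.3), and the normal mean was 5.23% without normal replicate 1. Without stress replicate 1 the stress mean was 3.21%, a 2.05-fold difference from normal, and the groups did not overlap.

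Together the 8 fragments held 23.8%, 23.8% and 25.6% of the remaining signal in the normal and 18.5%, 14.3% and 17.7% in the stress replicates. tRNA-Ala was higher relative to tRNA-Pro in normal replicate 3 (4.17-fold) and stress replicate 2 (4.27-fold) than in normal replicate 1 (1.57-fold) and stress replicate 1 (2.05-fold). That ratio did not separate the groups (log2 difference 0.21, exact permutation p = 0.6, n = 3 per group).

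**Figure D4:**
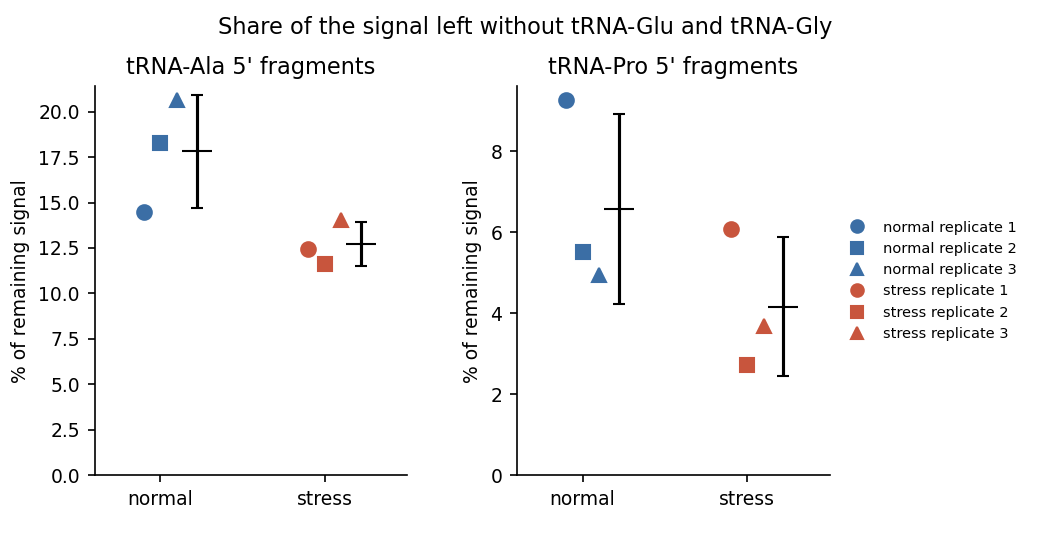
Percent of the signal left without tRNA-Glu and tRNA-Gly that fell to the 5' fragments of tRNA-Ala (left) and tRNA-Pro (right), 1 point per sample, with mean and SD (n = 3) in black. The 3 stress samples lie below all normal samples for tRNA-Ala (at most 14.03% against at least 14.5%) and overlap them for tRNA-Pro.

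The remaining signal is a closed whole, in which a lower share of 1 isotype goes with a higher share of others. tRNA-Val, its largest isotype, took 27.2%, 32.7% and 36.1% in the normal and 43.4%, 51.1% and 45.9% in the stress replicates. Of the 8 isotypes with at least 1% of this signal in every sample, 4 had groups that did not overlap. They were tRNA-Ala (lower in stress) and tRNA-Val, tRNA-Lys and tRNA-Asp (all higher). A lower mean in stress was not particular to tRNA-Ala (1.40-fold over all its rows). The means of tRNA-His, tRNA-Ser and tRNA-Pro were 1.53-fold, 1.54-fold and 1.57-fold lower in stress, with overlap. That of tRNA-Cys was higher, also with overlap. With the tRNA-Val rows left out too, a step chosen after seeing the data, tRNA-Ala 5' fragments stood at 26.5% ± 6.24 (SD, n = 3) in normal and 23.9% ± 1.96 in stress samples. The groups then overlapped (exact permutation p = 0.6), and so did those of tRNA-Pro, at 9.55% ± 2.75 and 7.70% ± 2.69 (exact permutation p = 0.5, n = 3 per group). The separation of tRNA-Ala therefore held against a total that includes tRNA-Val and not against one without it.

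On the rescaled values, no single row passed in limma. Ala-TGC was at −0.96 ± 0.34 on the log2 scale (SE, n = 3 per group, adjusted p = 0.30) and Ala-AGC at −0.70 ± 0.27 (adjusted p = 0.31 in limma). Ala-AGC was the 1 fragment of the 8 with groups apart, against 3 of 93 rows tested (3.23%) that did not overlap and were lower in stress, and 15 (16.1%) that were higher. Its rescaled shares were 21955, 25005 and 38553 RPM of the remaining rows in the normal and 15847, 19288 and 16090 in the stress replicates. Ala-CGC was at −0.21 ± 0.25 and the 3 tRNA-Pro rows between −0.70 and −0.66 (limma adjusted p = 0.34 each for Pro-AGG, Pro-TGG and Pro-CGG). With 1 sample left out, Ala-CGC ranged from −0.37 (without stress replicate 3) to −0.012 (without stress replicate 2), and was −0.11 without normal replicate 2. Over the same steps, Ala-TGC ranged from −1.27 (without normal replicate 1) to −0.63 (without normal replicate 3) and Ala-AGC from −0.87 to −0.46 for the same samples. Pro-AGG was −0.40 without normal replicate 1, −0.42 without stress replicate 2 and −0.99 without stress replicate 1, and Pro-TGG and Pro-CGG moved alike. The 1 RPM filter is laxer after rescaling, which is why more rows were tested.

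**Figure D5:**
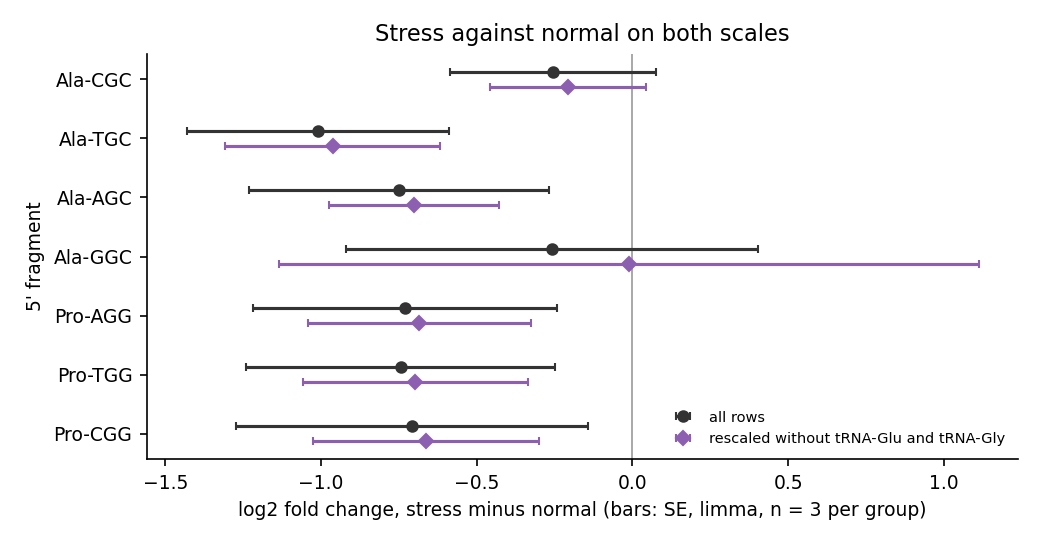
Log2 fold change of stress minus normal with its SE (limma, n = 3 per group) for the 7 tested fragments, on the RPM scale (black) and rescaled without tRNA-Glu and tRNA-Gly (purple). All 14 estimates lie below 0, Ala-CGC and Ala-GGC lie within 1 SE of it, and none passed the threshold.

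Over the whole table, limma called 0 of 87 tested rows (0%) at an adjusted p under 0.05, and 8 rows (9.2%) had an unadjusted p under 0.05, of which Ala-TGC was 1. After rescaling it called 0 of 93 rows (0%), and 14 (15.1%) had an unadjusted p under 0.05, among them Ala-TGC and Ala-AGC. On the RPM scale 7 of the 8 fragments were tested, with a median log2 difference of −0.73, beside 0.07 over all tested rows. All 7 were below 0, as were 41 of the 87 rows tested. None of the 7 had groups apart on this scale, where 1 of the 87 rows (1.15%) was apart and lower in stress and 6 (6.9%) were apart and higher. The 5' rows of other isotypes outside tRNA-Glu and tRNA-Gly (31 of 38 tested) had 0 higher, 0 lower and a median of −0.13. The 7 values are fewer measurements than their number, since the tRNA-Pro rows moved as 1 and normal replicate 3 was the highest sample for every tRNA-Ala row.

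The fragments of the other end were scarce. The 5' rows held 99.6% to 99.9% of all tRNA-Ala signal and 92.8% to 98.97% of all tRNA-Pro signal. The 3' and CCA rows of tRNA-Ala summed to 5.92, 3.54 and 23.3 RPM in the normal and to 16.4, 22.9 and 5.22 RPM in the stress replicates. Those of tRNA-Pro summed to 41.4, 26.9 and 126.1 RPM in the normal and to 33.01, 95.3 and 22.1 RPM in the stress replicates. Both sums were high in normal replicate 3 and stress replicate 2, 1 sample of each group. Of these 12 rows 6 were tested and 0 passed in limma, with Ala-TGC CCA at 1.001 ± 0.62 and the 3 tRNA-Pro CCA rows between −0.34 and −0.30 on the log2 scale. The CCA signal of tRNA-Pro per 1000 RPM of its 5' signal ran from 10.4 in normal replicate 1 to 74.8 in stress replicate 2, so 5' and CCA rows of tRNA-Pro did not keep a fixed ratio.

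Likeness to other features was measured as the root mean square difference of log2(RPM + 1), centred on each feature's mean, over the 6 samples. Closest to the tRNA-Ala 5' sum among 80 features of other isotypes was the 5' fragment Leu-AAG (0.171), followed by the CCA rows of Ser-TGA (0.258) and Met-CAT (0.290). Leu-AAG was at 178.9, 120.5 and 298.6 RPM in the normal and at 141.2, 178.6 and 113.5 RPM in the stress replicates, also highest in normal replicate 3. Closest to the tRNA-Pro 5' sum among 81 features were the 5' fragments Gln-TTG (0.321), Gln-CTG (0.394) and His-GTG (0.421). His-GTG shared the high normal replicate 1, at 10334 RPM against 4243 to 5738 RPM in the other samples.

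Markers of the cell types in these samples were read from the miRNA table, as shares of its reads. The 11 germ-line features (miR-34b and miR-34c and miRNAs abundant in testis) were present in every sample and summed to 0.479% to 0.672% in normal and 0.477% to 0.581% in stress samples. miR-34c-5p, a miRNA of sperm, was at 0.0231% to 0.0492% and 0.0598% to 0.0778%. The 6 epithelial features, all detected in every sample, summed to 1.19% to 1.70% in normal and 2.85% to 3.15% in stress samples. The 5 stromal, smooth muscle and endothelial features, all detected, summed to 0.254% to 0.481% and 0.898% to 1.05%. Of 6 leukocyte features 3 were detected in every sample, and their sum was 0.0349% to 0.0792% and 0.134% to 0.186%. The 3 red blood cell features, 2 of them detected in every sample, summed to 0.0328% to 0.0955% and 0.0250% to 0.0794%. The germ-line, stromal and red blood cell lists held 13, 6 and 4 names, of which only the 11, 5 and 3 features above were found. None of the features found was at 0 in all 6 samples. The epithelial, stromal and leukocyte sums were thus higher in every stress sample than in every normal sample. The tRNA-Ala share without tRNA-Glu and tRNA-Gly was lower. miR-34c-5p, 1 of the germ-line features, was also higher in every stress sample, but the sum of the 11 germ-line features overlapped between the groups. The part of any of these in the tRNA-Ala difference was not tested. Whether these miRNAs came from cells of the named types was not tested. In such bulk samples, a change in the number of cells of a type and a change in RNA per cell cannot be told apart.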

How the data were processed

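Small RNA of 6 sperm samples (3 normal, 3 stress, grouped by title and disease state) was measured by sequencing. Trizol extraction and an Illumina TruSeq RNA kit are named per the labels' protocols. Bowtie is named per the submitters' processing notes, without version. Not given in the sources used here: genome build, annotation, counting rule. The deposited tsRNA values are RPM; each sample's column sums to 1000000 over the table's own rows. The deposited miRNA table holds expected counts, with some reads split among features by the authors, and served only for depth and markers. The deposited piRNA table was not used.

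RPM values were tested with limma 3.58.1 (trend, R 4.3.3) on log2(RPM + 1), keeping rows with 1 RPM or more in 3 or more samples, with Benjamini-Hochberg adjustment over all tested rows and a threshold of 0.05. Fold changes are on this scale and understate changes of low rows. The fit was tested on simulated data. It was repeated after all tRNA-Glu and tRNA-Gly rows were removed and the rest rescaled to 1000000. Sums and ratios were compared with two-sided exact permutation tests (scipy 1.17.1). All members were named by rule. Members and lists were chosen with earlier results of these data known. Depth is an estimate, so no counting intervals are given. Alternatives were pseudocounts of 0.1 and 10, no filter, a 10 RPM filter, 5' rows only or log2 shares, median centring, no trend, a replicate block and each sample left out. The RefSeq table gave gene numbers only; no sequence is printed.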

Additional observations from a re-analysis of the deposited data

How the results depend on the processing

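For the 6 fragments other than Ala-GGC and Pro-GGG, on both scales, all 156 alternative values kept the direction of the difference and none passed in limma (adjusted p from 0.15 upward). Ala-GGC changed sign in 6 of its settings. On the RPM scale, leaving out 1 sample at a time gave log2 differences of −0.86 to 0.91; after rescaling it gave −0.76 to 1.25, a pseudocount of 0.1 gave 0.00089 and median centring gave 0.052. It was not testable at a 10 RPM filter on the RPM scale. The cause was not tested. The log2 difference of the ratio of tRNA-Ala to tRNA-Pro ranged from −0.21 (without normal replicate 1) to 0.53 over the 6 samples left out in turn. The number of rows called in the whole table was 0 to 2 with 1 sample left out; the 2 rows, called without normal replicate 3, were Glu-CTC 3' and Val-CAC 5'. After rescaling, limma without trend called 1 row, Leu-AAG 3'. All 4 shares of tRNA-Ala and tRNA-Pro stayed lower in stress under each alternative run.

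The values gave no sign that the replicate numbers pair the samples. Same-numbered samples correlated at 0.19, −0.36 and −0.23 in their deviations from the group means. Not every sample correlated best with its own number. With 3 samples per group, the deviations depend on each other, so this check cannot exclude a pairing. A replicate block called 0 rows on both scales, and the differences of the shares were −0.26 and −0.11 percentage points in the table and −5.11 and −2.42 without tRNA-Glu and tRNA-Gly (exact sign-flip p = 0.5 for tRNA-Ala in the table and 0.25, the smallest possible, for the other 3). edgeR was not run, because whole reads could not be recovered from the fractional values. A read was worth up to about 0.988 RPM by the rough depth estimate, so the lowest values of Ala-GGC rest on few reads and Pro-GGG, at most 0.022 RPM, on less than 1.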
